A study of Mus musculus with 4 samples.

Results

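Ribosome footprints on 10 genes of laminin and the basement membrane were described: Lama1, Lama5, Lamb1, Lamc1, Col4a1, Col4a2, Nid1, Hspg2, Sparc and Fn1, out of 25170 genes in the deposited table. They were chosen by symbol, and the set was drawn up with the PD and DMSO values of Lamb1 and Col4a1 already known, so their differences between the groups are given as a description and no test is read from them. The cells were E14 mouse embryonic stem cells, a wild-type line from the inner cell mass, kept without feeder cells on gelatin in medium with serum and leukemia inhibitory factor. 2 libraries came from cells kept in 1 µM PD for 3 passages, and 2 came from cells kept in DMSO, the solvent, for the same 3 passages. Both groups shared genotype, medium and substrate, PD is the only name the labels give the compound, and since nothing says that replicates were separate cultures, the spread between libraries may be technical. The comparison addresses what the kinase Mek does to gene expression after transcription. In ribosome profiling, RNase digests the RNA that ribosomes do not cover, and the protected pieces are sequenced. The amount of an mRNA and the density of ribosomes on it both enter such a value and could not be told apart here, nor could fewer cells of a type from less RNA per cell.

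A basement membrane is a thin sheet of secreted matrix under epithelia, and it is the first matrix that the early mouse embryo makes. Laminin is its founding polymer, a cross-shaped trimer of an alpha, a beta and a gamma chain that assembles inside the cell. Beta and gamma chains pair first and leave the cell only once an alpha chain has joined. Type IV collagen forms a second network, nidogen and perlecan bridge the networks, and Sparc and fibronectin bind collagen or cells. Cells hold the sheet through integrins and dystroglycan.

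The stretches upstream of the start site are shown for 4 genes whose PD libraries lay wholly on one side of their DMSO libraries, so that the genes can be placed and compared. They are the 250 bases before the start, 5′ to 3′ on the gene's strand, from RefSeq's table for GRCm38.p6 (mm10), which held 7 of the 10 members. Capitals mark matches on either strand to the GC box GGGCGG, the CCAAT box CCAAT, the TATA box TATAAA or the AP-1 site TGANTCA, where N is any base.
Lamb1, beta 1 chain, chr12:31265043-31265292, plus strand: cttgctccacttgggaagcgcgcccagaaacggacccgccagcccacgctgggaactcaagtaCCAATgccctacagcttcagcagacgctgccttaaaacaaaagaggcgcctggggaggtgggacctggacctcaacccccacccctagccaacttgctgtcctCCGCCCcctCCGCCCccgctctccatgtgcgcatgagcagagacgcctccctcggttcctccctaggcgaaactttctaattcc
Lama5, alpha 5 chain, chr2:180225860-180226109, minus strand: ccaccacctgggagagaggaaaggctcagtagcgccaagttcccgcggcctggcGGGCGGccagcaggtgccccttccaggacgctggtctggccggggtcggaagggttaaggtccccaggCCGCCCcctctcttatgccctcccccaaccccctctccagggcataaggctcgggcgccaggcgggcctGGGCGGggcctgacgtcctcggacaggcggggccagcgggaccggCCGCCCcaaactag
Sparc, chr11:55420081-55420330, minus strand: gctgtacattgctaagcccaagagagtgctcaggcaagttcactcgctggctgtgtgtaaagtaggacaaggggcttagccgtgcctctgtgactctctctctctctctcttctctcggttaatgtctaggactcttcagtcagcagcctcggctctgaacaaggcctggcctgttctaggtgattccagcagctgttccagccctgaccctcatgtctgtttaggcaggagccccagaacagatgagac
Nid1, nidogen 1, chr13:13437352-13437601, plus strand: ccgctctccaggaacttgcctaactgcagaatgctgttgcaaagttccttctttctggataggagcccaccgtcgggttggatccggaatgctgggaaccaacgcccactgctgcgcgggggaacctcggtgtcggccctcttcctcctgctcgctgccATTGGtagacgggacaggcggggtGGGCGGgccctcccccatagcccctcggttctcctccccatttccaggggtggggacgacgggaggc
Lamb1 and Lama5 held 2 and 4 GC boxes in these windows, Nid1 held 1, and Sparc held none of the 4 motifs. Lamb1 and Nid1 each held 1 CCAAT box. Among the members whose windows are not shown, Hspg2, which overlapped between the groups, held 5 GC boxes. Col4a1 and Col4a2, whose PD libraries also lay wholly on one side, above DMSO, held 0 and 2 GC boxes and 1 CCAAT box each. Over all 32851 upstream windows of the same length, 32.7% held a GC box, 33.8% a CCAAT box, 12.4% a TATA box and 6.75% an AP-1 site. Matches are counted by start position and describe letters only.

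The PD libraries were the shallower ones. Relative to DMSO replicate 1, depth read from the FPKM steps was 0.464 in PD replicate 1, 0.201 in PD replicate 2 and 1.42 in DMSO replicate 2. Depth therefore went with treatment, and its part in any difference below was not tested. Over all 9741 genes tested, both PD libraries lay above in 17.5% and below in 18.3%, the shares to set beside every such count. The 13 embryonic stem cell markers were all tested, with 4 above and 2 below in both PD libraries and a median log2 difference of 0.19. That median was -0.09 with voom and 0.09 without PD replicate 2. Nanog, a pluripotency factor, had 136 and 116 FPKM in the PD libraries and 70.0 and 57.1 FPKM in the DMSO libraries, with no overlap (limma adjusted p = 0.803). L1td1, an RNA-binding protein of stem cells, had 338 and 300 FPKM in PD and 199 and 232 FPKM in DMSO, also with no overlap. Epcam, an epithelial adhesion molecule, had 25.8 and 27.7 FPKM in PD and 68.4 and 88.9 FPKM in DMSO, so both PD libraries lay well below (limma adjusted p = 0.614). Pou5f1, the core pluripotency factor, added as a check of the cell type after its values were seen, stood at 247 and 228 FPKM in the PD libraries and at 326 and 245 FPKM in the DMSO libraries. Of the markers of extraembryonic endoderm, the embryonic tissue that lays down thick laminin-rich membranes, most were at or near 0 but not all. Gata6, Foxa1, Ttr and Fabp1 were listed at 0 in every library, and Gata4, Sox17, Sox7, Pdgfra and Dab2 stayed under 0.5 FPKM. Apoe, a lipoprotein gene, had 397 and 350 FPKM in the PD libraries and 434 and 501 FPKM in the DMSO libraries. Lrp2, the endocytic receptor megalin, had 14.6 and 10.4 FPKM in PD and 14.7 and 13.1 FPKM in DMSO, and the keratin gene Krt18 had 4.27 and 8.05 FPKM in PD and 4.69 and 9.03 FPKM in DMSO. Both overlapped between the groups. Of the 26 markers of that list 9 were tested, 1 of them above (Sparc) and 2 below in both PD libraries (Apoe and Krt19), with a median of -0.15, which was 0.26 without PD replicate 1, -0.38 without PD replicate 2 and -0.28 without DMSO replicate 1. Without Apoe and the members Sparc and Lama1, the other 23 markers of that list summed to 26.6 and 29.1 FPKM in the PD libraries and to 30.7 and 36.0 FPKM in the DMSO libraries. Of the 20 fibroblast markers, 5 were listed at 0 throughout (Postn, Lum, S100a4, Prrx1 and Cav1), and 4 were tested, 2 of them above and 0 below in both PD libraries, with a median of 0.25. That median moved with single libraries: it was 0.52 without PD replicate 1, -0.01 without PD replicate 2, 0.51 without DMSO replicate 1 and 0.00 without DMSO replicate 2, and Vim alone was left at 1.79 with a filter of 5 FPKM. 0 genes of these 3 marker lists passed (limma), with 2, 1 and 1 at an unadjusted p under 0.05. Without Vim the other 19 summed to 7.48 and 9.96 FPKM in the PD libraries and to 11.0 and 5.26 FPKM in the DMSO libraries. Vim, an intermediate filament gene that is not specific to fibroblasts, stood at 207 and 185 FPKM in the PD libraries and at 105 and 29.7 FPKM in the DMSO libraries.

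As a set, the members did not move in 1 direction. Their FPKM summed to 438 and 380 in the PD libraries and to 428 and 368 in the DMSO libraries. 9 of the 10 members reached the mean of 1 FPKM over the 4 libraries that was required for the fit, and Col4a2 did not. Col4a1 reached it only through its PD libraries. Of the 9, 3 lay above both DMSO libraries in both PD libraries (Col4a1, Nid1 and Sparc), beside 17.5% of all 9741 genes tested, and 3 had both below (Lamb1, Lama5 and Fn1), beside 18.3%. The other 3, Lama1, Lamc1 and Hspg2, overlapped. 0 members passed an adjusted p of 0.05 in voom on recovered reads, a fit that did not include Fn1. In limma 0 of the 9 passed, beside 0.257% of all genes, and 2 had an unadjusted p under 0.05, beside 5.76%. 0 of the 8895 protein-coding genes among those tested passed in that fit, with 458 at an unadjusted p under 0.05. Nothing is read from these counts, since the set was chosen with this contrast known. The median log2 difference of the 9 was -0.13, against -0.02 over all genes tested.

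**Figure D1:**
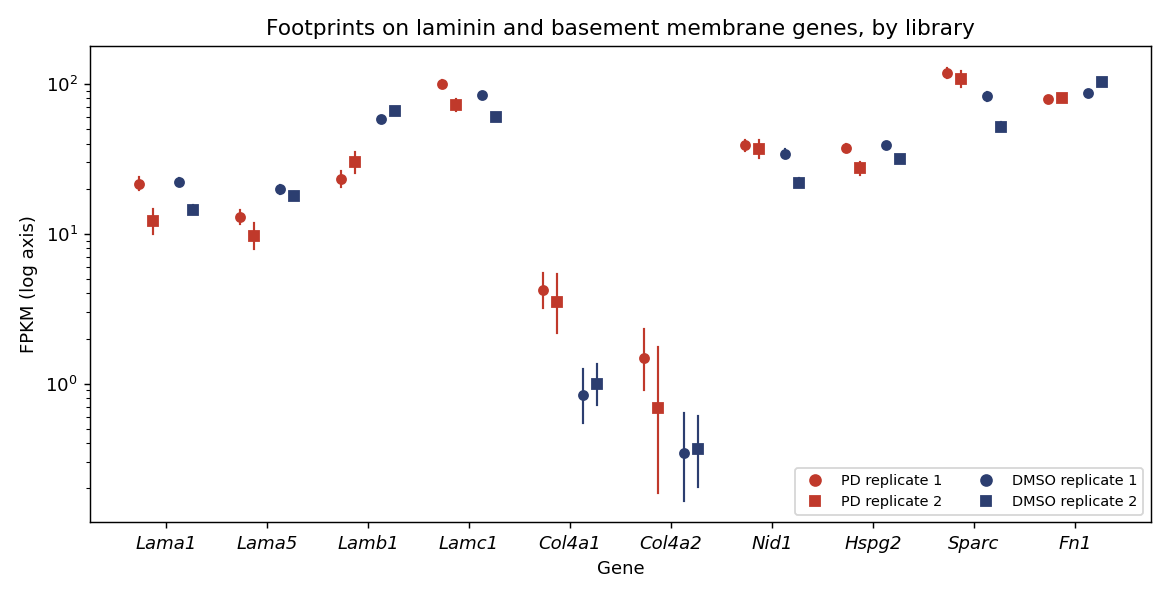
FPKM of each member in the 4 libraries (log axis), with PD in red left of DMSO in blue. Vertical lines are exact 95% Poisson intervals of the recovered reads, which cover counting error only; Fn1 had no recovered reads and has none. The Lamb1 and Lama5 points of PD lie below those of DMSO, and the Col4a1 and Sparc points of PD lie above them.

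Lamb1, the beta 1 chain shared by the main embryonic laminins (mm10, chromosome 12, 31265293 to 31329644), had the largest downward difference of the members. It stood at 23.3 and 29.98 FPKM in the PD libraries and at 58.2 and 66.3 FPKM in the DMSO libraries. Both PD libraries lay under the lower DMSO library, and the groups were far apart. The means were 26.6 ± 4.74 FPKM in PD and 62.3 ± 5.68 FPKM in DMSO (SD, n = 2 each), 2.34-fold higher in DMSO, and the log2 difference was -1.20 with an SE of 0.27. These values rested on 279 and 156 recovered reads in the PD libraries and on 1505 and 2426 in the DMSO libraries. The exact 95% Poisson intervals spanned 20.6 to 35.1 FPKM over the PD libraries and 55.3 to 69.0 FPKM over the DMSO libraries. The authors' own bounds were wider and reached 43.0 FPKM in PD and down to 32.3 FPKM in DMSO, so they overlapped. Leaving out any 1 library gave log2 differences between -1.38 and -1.03.

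Lamc1, the gamma 1 chain found in nearly all laminins (chromosome 1, 153218922 to 153332786), did not separate the groups. It had 100 and 72.1 FPKM in the PD libraries and 84.6 and 60.0 FPKM in the DMSO libraries. In each group replicate 1 was the higher library, and the ranges of the groups crossed. The log2 difference was 0.25 with an SE of 0.33, and it was 0.01 without DMSO replicate 2 and 0.02 without PD replicate 1.

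Lama5, the alpha 5 chain of laminins of the early epiblast (chromosome 2, 180176373 to 180225859), had 12.95 and 9.69 FPKM in the PD libraries and 19.7 and 18.0 FPKM in the DMSO libraries. The groups did not overlap, and neither did their Poisson intervals, which ended at 14.5 FPKM in PD and began at 17.0 FPKM in DMSO. The log2 difference was -0.70 with an SE of 0.27, from 311 and 101 reads in PD and 1022 and 1317 reads in DMSO.

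Lama1, the alpha 1 chain of the first laminin of the embryo (chromosome 17, 67697265 to 67822645), had 21.6 and 12.1 FPKM in the PD libraries and 22.3 and 14.5 FPKM in the DMSO libraries. The replicates of each group differed by more than the group means did. Its log2 difference of -0.14 (SE 0.41) turned to 0.15 without DMSO replicate 1 and to 0.25 without PD replicate 2.

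FPKM is scaled by a length for each gene, and a ratio within a library also removes any library-wide scale. Whether that length was of the coding sequence or of the whole transcript is not stated. The size of a ratio between genes is therefore a statement about FPKM and not about ribosomes per coding base. Lamb1 stood at 0.232 and 0.416 of the Lamc1 level in the PD libraries and at 0.688 and 1.10 of it in the DMSO libraries. In FPKM, Lamb1 was thus well short of Lamc1 in PD and a little above it in DMSO replicate 2. Lama5 stood at 0.129 and 0.134 of Lamc1 in PD and at 0.233 and 0.299 in DMSO, with little spread inside PD. Lama1 stood at 0.215 and 0.168 of Lamc1 in PD and at 0.263 and 0.241 in DMSO. For all 3 ratios both PD libraries lay below both DMSO libraries. They share the Lamc1 values and are not independent of the differences above. How often ratios of other genes lie apart in this way was not computed, so nothing is read from that count. With 2 libraries against 2, no exact permutation test of a ratio can go below p = 0.333.

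Summed over every chain gene of a kind, alpha chains had 35.6 and 22.7 FPKM in the PD libraries and 43.0 and 33.2 FPKM in the DMSO libraries. Beta chains had 33.2 and 35.6 FPKM in PD and 65.8 and 72.8 FPKM in DMSO, and gamma chains had 104 and 74.7 FPKM in PD and 87.1 and 61.5 FPKM in DMSO. The beta sum was the one that separated the groups. Lamb1 made up 70.2% and 84.3% of the beta sum in PD and 88.5% and 91.1% in DMSO, while Lama1 and Lama5 together made up at least 96.0% of the alpha sum and Lamc1 at least 96.5% of the gamma sum in every library. Lamb2, the beta 2 chain of muscle and kidney laminins, had 9.88 and 4.75 FPKM in PD and 7.53 and 6.19 FPKM in DMSO. By FPKM it was a minor chain in all 4 libraries. The Lamb1 level was 2.36 and 6.31 times that of Lamb2 in PD and 7.73 and 10.7 times in DMSO.

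**Figure D2:**
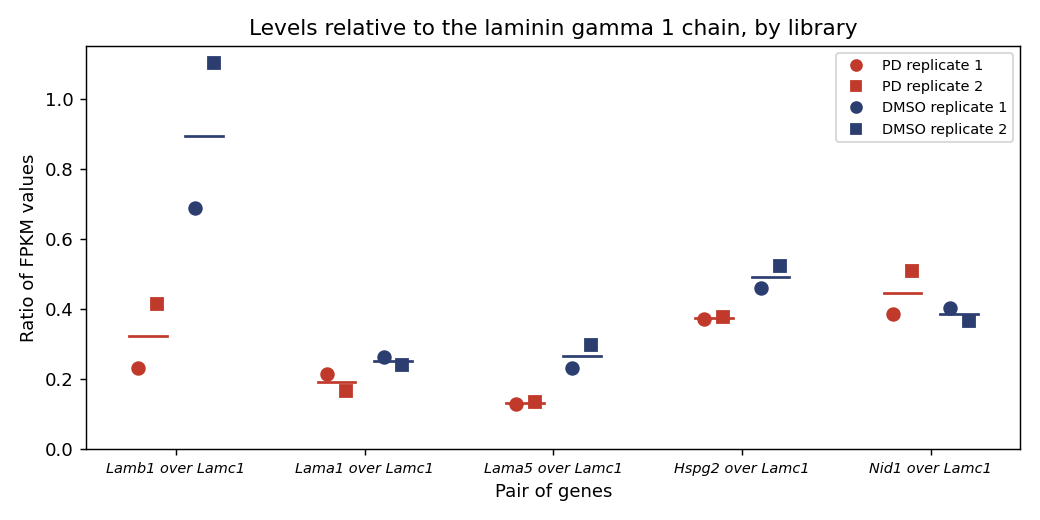
Ratio of the FPKM of 5 members to that of Lamc1 in each library (linear axis from 0), PD in red left of DMSO in blue, with bars at the group means. Lamb1 over Lamc1 averaged 0.324 in PD and 0.896 in DMSO, and the Nid1 ratios overlapped.

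Col4a1 and Col4a2, which encode the alpha 1 and alpha 2 chains of the common type IV collagen trimer, lie head to head on chromosome 8 and are transcribed away from each other from a shared promoter. The deposited table gives both the same locus, 11198423 to 11449287, as a joined region. Their RefSeq starts lie at 11312826 on the minus strand for Col4a1 and at 11312805 on the plus strand for Col4a2, so the annotated transcripts overlap by 22 bases, shown here on the plus strand to place the shared start.
Col4a1 and Col4a2, chr8:11312805-11312826: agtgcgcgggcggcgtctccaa
Motifs are not put in capitals in this stretch, which holds a match to the GC box GGGCGG. Both genes had few footprints. Col4a1 had 4.21 and 3.51 FPKM in the PD libraries and 0.842 and 0.999 FPKM in the DMSO libraries, from 58 and 21 recovered reads in PD and 25 and 42 in DMSO. Its PD and DMSO values did not overlap, and the mean was 4.20-fold higher in PD. The log2 difference was 1.34 with an SE of 0.32 on the log2(FPKM + 1) scale, which shrinks low values, and 2.09 with voom on recovered reads. The Poisson intervals began at 2.17 FPKM in PD and ended at 1.35 FPKM in DMSO, whereas the authors' bounds overlapped, from 1.42 FPKM in PD and up to 1.88 FPKM in DMSO.

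Col4a2 had 1.49 and 0.687 FPKM in the PD libraries and 0.346 and 0.366 FPKM in the DMSO libraries. The PD libraries again lay above both DMSO libraries, but PD replicate 2 held only 4 recovered reads and the counting intervals of the groups overlapped. Its reads were 20 and 4 in PD and 10 and 15 in DMSO. The log2 difference was 0.60 and was not part of the fit. It was 0.31 without PD replicate 1, 0.88 without PD replicate 2 and 1.70 with voom on recovered reads. The trimer holds more alpha 1 than alpha 2 chains. By FPKM, Col4a1 was 2.83 and 5.11 times Col4a2 in PD and 2.43 and 2.73 times in DMSO. The higher PD ratio came from the library with 4 Col4a2 reads.

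Nid1, nidogen 1, which links the laminin gamma 1 chain to type IV collagen (chromosome 13, 13437602 to 13512275), had 38.8 and 36.7 FPKM in the PD libraries and 34.3 and 22.0 FPKM in the DMSO libraries. The PD libraries lay just above DMSO replicate 1 and further above DMSO replicate 2. Its log2 difference of 0.45 (SE 0.31) was 0.14 without DMSO replicate 2 and 0.75 without DMSO replicate 1. Nid2, its paralog, was looked up after its values were seen. It had 80.3 and 72.6 FPKM in PD and 93.8 and 91.2 FPKM in DMSO. By FPKM, Nid2 was the higher nidogen gene in all 4 libraries. Nid1 stood at 0.483 and 0.505 of Nid2 in PD and at 0.365 and 0.241 in DMSO.

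Hspg2, which encodes the heparan sulfate proteoglycan perlecan (chromosome 4, 137468803 to 137570630), had 37.5 and 27.3 FPKM in the PD libraries and 38.9 and 31.4 FPKM in the DMSO libraries. As for Lamc1, replicate 1 was the higher library in each group and the groups overlapped. The log2 difference was -0.13 (SE 0.29), and it was 0.03 without DMSO replicate 1 and 0.10 without PD replicate 2. Relative to Lamc1, perlecan stood at 0.374 and 0.378 in PD and at 0.460 and 0.523 in DMSO.

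Sparc, a collagen-binding glycoprotein of basement membranes (chromosome 11, 55394159 to 55420080), had 119 and 108 FPKM in the PD libraries and 82.6 and 51.7 FPKM in the DMSO libraries. Both PD libraries lay above both DMSO libraries, and the DMSO libraries differed from each other by more than the PD libraries did. The means were 114 ± 7.36 FPKM in PD and 67.2 ± 21.9 FPKM in DMSO (SD, n = 2 each), 1.69-fold higher in PD, and the log2 difference was 0.78 with an SE of 0.33. It was 0.45 without DMSO replicate 2 and 1.12 without DMSO replicate 1. The Poisson intervals began at 95.2 FPKM in PD and ended at 88.1 FPKM in DMSO. DMSO replicate 2 was also the low library for Vim, as given above, and whether the low values share a source was not tested.

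Fn1, fibronectin, a cell-binding matrix protein that is alternatively spliced (chromosome 1, 71585473 to 71653234), had 79.3 and 80.1 FPKM in the PD libraries and 86.3 and 103 FPKM in the DMSO libraries. The PD libraries were close together and lay a little below DMSO replicate 1. The log2 difference was -0.24 with an SE of 0.25, about the size of its error, and it was -0.11 without DMSO replicate 2 and -0.36 without DMSO replicate 1. Fn1 was the member without recovered whole reads.

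**Figure D3:**
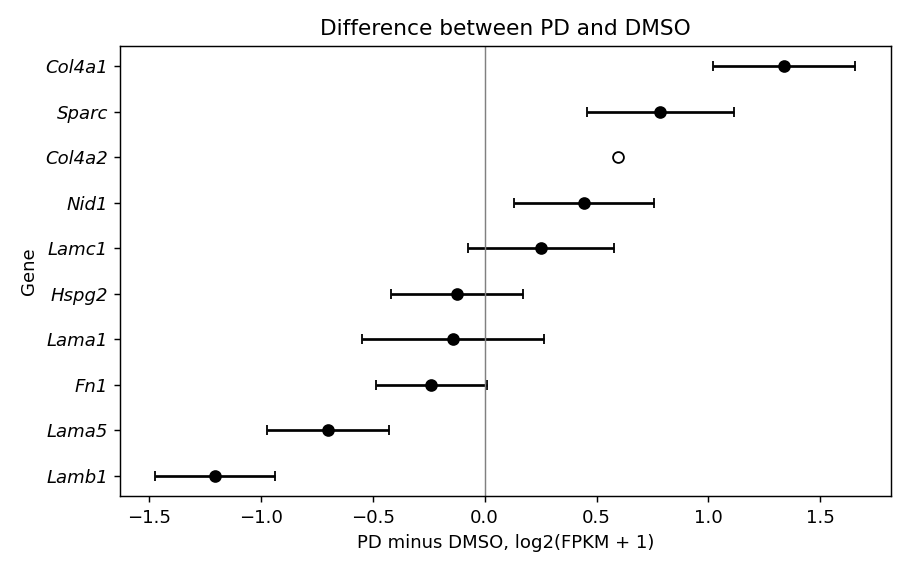
Log2 difference, PD minus DMSO, on the log2(FPKM + 1) scale for each member, with bars of 1 SE from the limma fit over all genes; the open point is Col4a2, which was not fitted. Values run from -1.20 for Lamb1 to 1.34 for Col4a1.

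The order of the members by level differed between the groups. In PD it ran Sparc, Lamc1, Fn1, Nid1, Hspg2, Lamb1, Lama1, Lama5, Col4a1 and Col4a2, by mean FPKM. Lamc1 and Fn1, Nid1 and Hspg2, Hspg2 and Lamb1, and Lama1 and Lama5 overlapped as neighbours in that order. In DMSO it ran Fn1, Lamc1, Sparc, Lamb1, Hspg2, Nid1, Lama5, Lama1, Col4a1 and Col4a2, where Lamc1 and Sparc, Sparc and Lamb1, Hspg2 and Nid1, and Lama5 and Lama1 overlapped. Lamb1 stood above 81.0% of the tested protein-coding genes in PD and above 91.7% in DMSO. Col4a1 stood above 36.9% in PD and 2.93% in DMSO, and Sparc above 95.8% in PD and 92.2% in DMSO. Col4a1 was among the tested genes only through its PD libraries, so its low rank in DMSO was largely set by the filter.

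Replicates of the well-covered members often differed by more than counting error. Among the 9 members with recovered reads, the Poisson intervals of the DMSO replicates were apart for 6, and those of the PD replicates for 3 (Lama1, Lamc1 and Hspg2). Taken as counting intervals, PD and DMSO were apart for 4 members, with PD above for Col4a1 and Sparc and below for Lamb1 and Lama5. The share of all genes apart by this measure was not computed, so nothing is read from that count. The authors' bounds of the groups were apart for 0 of the 10 members. 1 recovered read was worth 0.0887 FPKM for Sparc and 0.0155 FPKM for Hspg2 in DMSO replicate 1, the ends of the range over the members with reads.

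Of 36 further components of the basement membrane, 10 were tested, 6 lay below both DMSO libraries in both PD libraries and 1 lay above, beside 18.3% and 17.5% of all genes. 0 passed (limma), 2 had an unadjusted p under 0.05, and the median log2 difference was -0.45, against -0.02 over all genes. That median was -0.30 without PD replicate 2, -0.27 with a pseudocount of 5 FPKM and -0.66 with voom. Frem2, a Fraser complex protein named after its values were seen, was 1 of the 6 and 1 of the 2, and it entered the test only through its DMSO libraries, with 0.345 and 0.177 FPKM in PD and 1.41 and 2.24 FPKM in DMSO. Fbln1, fibulin 1, an elastic fibre and basement membrane glycoprotein, had 13.5 and 15.2 FPKM in the PD libraries and 24.4 and 39.6 FPKM in the DMSO libraries (limma adjusted p = 0.806). Col18a1, the collagen that carries endostatin, had 49.9 and 34.6 FPKM in PD and 75.5 and 57.6 FPKM in DMSO (limma adjusted p = 0.837). Ntn1, netrin 1, a laminin-related guidance protein, had 6.65 and 5.81 FPKM in PD and 9.91 and 10.4 FPKM in DMSO (limma adjusted p = 0.837). In none of these 3 genes did the groups overlap. Most remaining components, among them Col4a3 to Col4a6, were too low to test, and Ntn4 was listed at 0 throughout.

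Receptors that hold cells to laminin and fibronectin lay on both sides. Of 26 receptor genes, 14 were tested and 0 passed (limma), with 0 at an unadjusted p under 0.05. 1 lay above and 5 lay below in both PD libraries, beside 17.5% and 18.3% of all genes, and the median log2 difference was 0.07. That median was -0.15 without DMSO replicate 2 and -0.18 without PD replicate 1. Sdc4, the syndecan 4 proteoglycan that acts with integrins on fibronectin, had 12.2 and 5.22 FPKM in the PD libraries and 19.1 and 17.8 FPKM in the DMSO libraries (limma adjusted p = 0.837). Cd151, a tetraspanin that binds laminin-binding integrins, had 63.5 and 44.0 FPKM in PD and 50.1 and 27.05 FPKM in DMSO, with overlap. Itgav, the alpha V integrin that binds fibronectin, had 8.29 and 8.45 FPKM in PD and 5.90 and 6.45 FPKM in DMSO, with no overlap (limma adjusted p = 0.837).

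Dystroglycan needs a sugar chain to bind laminin, and of 16 genes for that pathway 11 were tested. In both PD libraries 1 lay above and 1 below, beside 17.5% and 18.3% of all genes. 0 passed (limma), and 1 had an unadjusted p under 0.05, beside 5.76%. The median log2 difference was -0.12. It turned to 0.17 without DMSO replicate 1, 0.07 without PD replicate 2 and 0.03 with voom, and was -0.48 without PD replicate 1. Dpm2, a subunit of dolichol-phosphate mannose synthase, had 21.2 and 0 FPKM in PD and 12.8 and 3.70 FPKM in DMSO. Its subunit partner Dpm3 had 113 and 65.3 FPKM in PD and 104 and 85.1 FPKM in DMSO. Gmppb, which makes GDP-mannose, had 32.8 and 22.1 FPKM in PD and 41.7 and 23.2 FPKM in DMSO. All 3 overlapped between the groups. Pomt2, under the mean of 5 FPKM required for naming, was named after its values were seen. It was the 1 gene above and the 1 at an unadjusted p under 0.05 (limma). Its values were 4.89 and 8.16 FPKM in PD and 2.44 and 1.73 FPKM in DMSO. Its log2 difference of 1.26 was the largest of the list in size.

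Genes that fold, modify and export collagen lay on both sides. Of 31 genes, 26 were tested, and 8 lay above and 7 below in both PD libraries, beside 17.5% and 18.3% of all genes. The median log2 difference was 0.08, and it was 0.02 without PD replicate 2, 0.01 with voom and 0.18 with a filter of 5 FPKM. 0 passed (limma), and 1 gene had an unadjusted p under 0.05, beside 5.76% of all genes. That gene was Creb3l1, a transcription factor of the secretory pathway named after its values were seen. It was 1 of the 7 below and entered the test only through its DMSO libraries, with 0.225 and 0.518 FPKM in PD and 2.71 and 2.73 FPKM in DMSO. Colgalt1, which adds galactose to collagen hydroxylysine, had 24.4 and 29.7 FPKM in the PD libraries and 18.2 and 16.5 FPKM in the DMSO libraries (limma adjusted p = 0.837). Tmem38b, an endoplasmic reticulum cation channel needed for collagen modification, had 4.55 and 4.03 FPKM in PD and 15.3 and 6.25 FPKM in DMSO. P3h4, a partner of collagen lysyl hydroxylation, had 6.43 and 1.93 FPKM in PD and 9.86 and 4.03 FPKM in DMSO, with overlap.

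**Figure D4:**
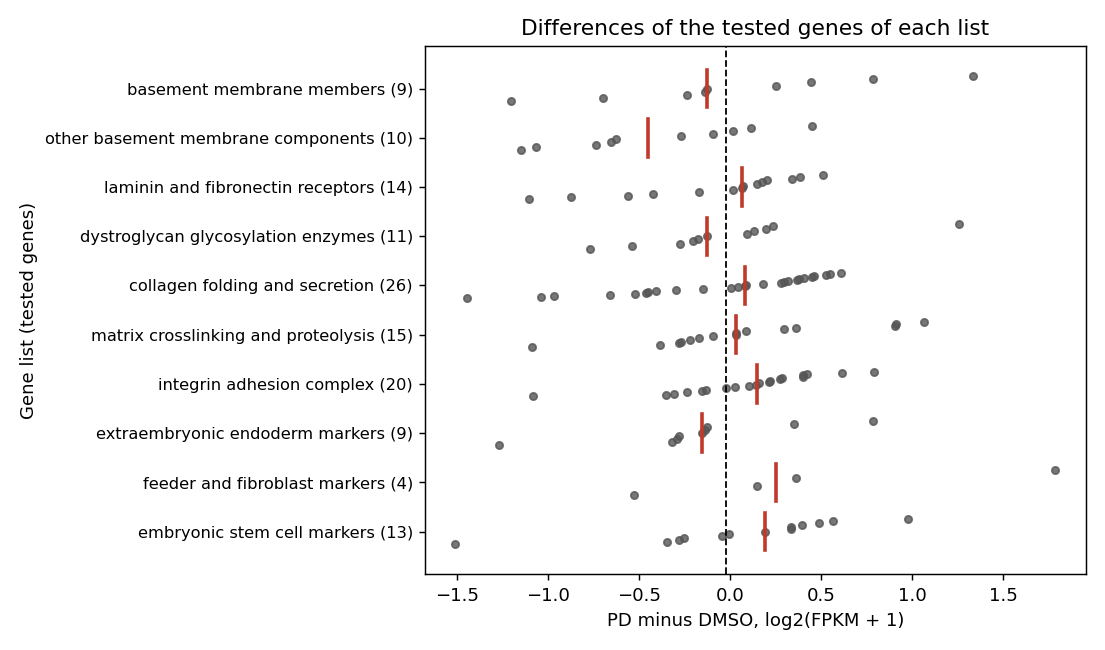
Log2 difference, PD minus DMSO, of every tested gene of the members and of 9 further lists (number tested in brackets), with red bars at the list medians and a dashed line at the median of all tested genes. The further basement membrane components have a median of -0.45, and the members spread from -1.20 to 1.34.

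**Figure D5:**
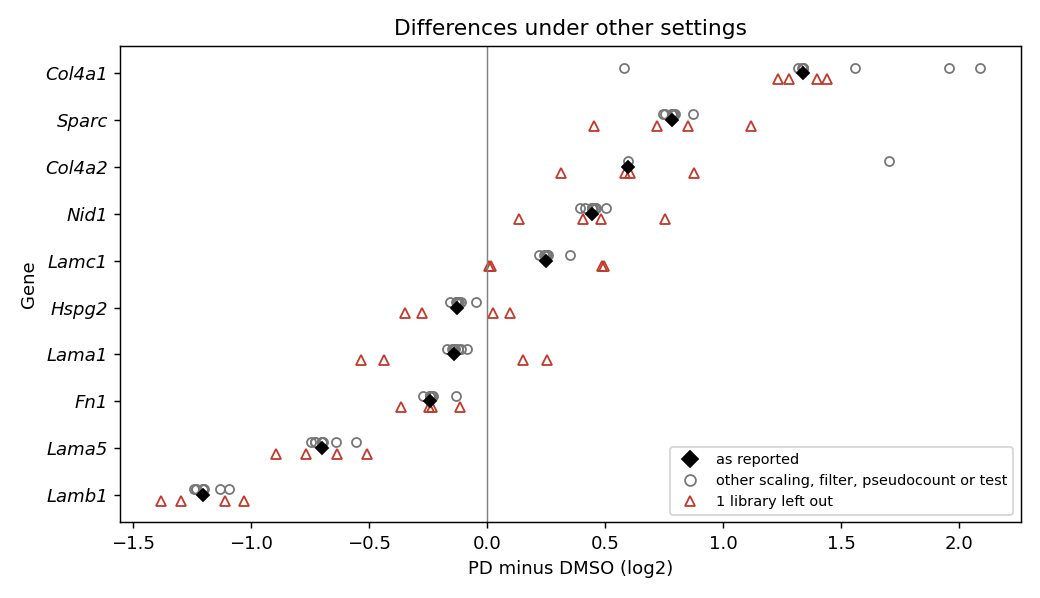
Log2 difference of each member as reported (diamonds), under other scalings, filters, pseudocounts and tests (circles) and with 1 library left out (triangles). Lama1 and Hspg2 cross 0 when DMSO replicate 1 or PD replicate 2 is left out, and no other member does.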

How the data were processed

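4 ribosome profiling libraries were used, 2 of PD and 2 of DMSO. The deposited values are FPKM with a lower and an upper bound, made by the authors with FastQC, Trimmomatic, Bowtie2, STAR and Cufflinks on mm10, per the submitters' processing notes, without versions. Whether reads outside coding sequence were counted is not stated. 1 gene with a failed status was left out. Members, gene lists and tests were chosen with earlier results of these data known.

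The 9741 genes whose mean over the libraries was 1 FPKM or more were fitted as log2(FPKM + 1) with limma 3.58.1 in R 4.3.3 (lmFit, eBayes with a variance trend, group as the only term), adjusted by Benjamini-Hochberg over all of them. Fold changes on that scale understate low genes. Depth was read from FPKM steps: with a tolerance of 0.02 reads and at most 500 reads in the lowest library, 74.8% of 10161 genes gave whole reads, against 2.54% to 3.28% over 5 sets of wrong steps. Recovered reads are the smallest possible solution, so a multiple of them could be true. Poisson intervals cover only counting error, as reads without molecular identifiers are not independent molecules. 1 was added to the deposited starts, which equal the RefSeq start minus 1 for 14683 genes. The fit and the recovery of reads were tested on simulated data. Besides the members, the rule named up to 3 tested genes of each list with a mean of at least 5 FPKM and the largest log2 differences.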

Additional observations from a re-analysis of the deposited data

How the results depend on the processing

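Over all genes, 3 were higher and 22 lower in PD (limma), with 0 of them among the 8895 protein-coding genes. Leaving out 1 library in turn gave 0 to 27 higher and 0 to 20 lower, and voom on recovered reads gave 0 and 0, with 509 genes at an unadjusted p under 0.05. 0 members passed under any alternative. With 1 library left out, Lama1 ranged from -0.53 to 0.25 and Hspg2 from -0.35 to 0.10, so both turned. The other members kept their direction under every alternative that included them. Col4a1 moved from 0.58 with a pseudocount of 5 FPKM to 1.96 with one of 0.1 FPKM, and Col4a2 was 1.70 with voom. Quantile normalization put the median over all genes at 0.04, against -0.02. The replicate numbers are not stated to mark shared cultures. Deviations of DMSO replicate 1 and PD replicate 1 correlated at r = 0.10 over all tested genes and at r = 0.20 over the 8895 protein-coding ones, and with the replicate block 2 genes were higher and 17 lower. 2 libraries a group and the shallow PD libraries limit every value.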

Other observations

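Genes that crosslink or cut matrix showed no common direction, and 15 of 32 were tested. In both PD libraries 3 lay above and 2 below, beside 17.5% and 18.3% of all genes. 0 passed (limma), and 1 had an unadjusted p under 0.05, beside 5.76%. The median log2 difference was 0.03. It was 0.22 without DMSO replicate 1, -0.11 without DMSO replicate 2 and -0.03 without PD replicate 1. Pcolce, an enhancer of procollagen cleavage, had 109 and 88.2 FPKM in the PD libraries and 66.1 and 40.4 FPKM in the DMSO libraries (limma adjusted p = 0.837). Adam10, a membrane protease that sheds cell surface proteins, had 6.03 and 9.50 FPKM in PD and 3.04 and 4.19 FPKM in DMSO. Htra1, a secreted serine protease, had 72.5 and 19.8 FPKM in PD and 38.6 and 7.80 FPKM in DMSO, where replicate 1 was the high library of each group. Serpine2, under the mean of 5 FPKM required for naming, was named after its values were seen. It was 1 of the 2 below and the 1 at an unadjusted p under 0.05 (limma). Its values were 1.01 and 1.16 FPKM in PD and 3.96 and 2.96 FPKM in DMSO. They came from 2 and 1 recovered reads in PD and 17 and 18 in DMSO.

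Among genes of the integrin adhesion complex, 20 of 25 were tested. In both PD libraries 5 lay above and 2 below, beside 17.5% and 18.3% of all genes. 0 passed (limma), and 2 had an unadjusted p under 0.05, beside 5.76%. The median log2 difference was 0.15. It was -0.05 without DMSO replicate 1 and 0.08 without PD replicate 1. Fermt2, the integrin activator kindlin 2, had 10.3 and 10.2 FPKM in the PD libraries and 5.61 and 5.37 FPKM in the DMSO libraries (limma adjusted p = 0.806). Parvb, a parvin that links integrins to actin, had 11.7 and 10.7 FPKM in PD and 8.88 and 7.66 FPKM in DMSO. Rsu1, a partner of the same complex, had 35.5 and 16.2 FPKM in PD and 13.7 and 22.8 FPKM in DMSO, with overlap. Pxn, under the mean of 5 FPKM required for naming, was named after its values were seen. It was 1 of the 2 below and 1 of the 2 at an unadjusted p under 0.05 (limma). Its values were 2.66 and 2.14 FPKM in PD and 5.49 and 6.97 FPKM in DMSO. Its log2 difference of -1.08 was the largest of the list in size.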
